A study of Mus musculus with 9 samples.

Results

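Fbxo15, the gene that carried the drug-resistance marker used to select induced pluripotent stem (iPS) cells, was described together with 4 other genes known for their activity in mouse embryonic stem (ES) cells: Dppa3, Dppa4, Tcl1 and Alpl. They were found on the arrays by RefSeq accession, except Fbxo15, whose probe was named from the gene's name in words in the deposited description. Each of the 5 genes had 1 probe, out of 15604 genes named on the array. RNA of 9 mouse samples was hybridised, once for each, to Agilent arrays read in 1 colour (Cy3), to ask how far cells made by factor transfer resemble ES cells and how far the fibroblasts they came from.

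The ES cells were labelled Fbx15-null (Fbx15 is the older name of Fbxo15) and were grown on STO feeder cells, a mouse fibroblast line. The mouse embryonic fibroblasts (MEF) were also labelled Fbx15-null and came from E13.5 embryos. The 4 iPS clones came from MEF with a bgeo (βgeo) knock-in at Fbx15, a fusion that gives resistance to the drug G418 where the gene is active. They received retroviral vectors for factors that the labels do not name, were kept in ES cell conditions and were selected with G418 for 16 days: 1 clone with 4 factors, 1 with 10 factors and 2 with 3 factors, called 3-factor clones 1 and 2. Each is a single clone. The unselected MEF carried the same knock-in and received 4 factors without G418, and no iPS clones were seen. The other fibroblast-derived samples were NIH3T3 cells, an established fibroblast line, transformed by a retrovirus with the active Ras mutant HRasV12, and a line of spontaneously immortalised wild-type MEF whose transgene is not described here. No label states that the samples within a class were grown separately. The p-values below therefore cover the spread between these samples, from which technical spread cannot be told apart. That spread includes differences between unlike cells in the fibroblast-derived class, and between clones and numbers of factors in the iPS class. Precision is limited by how few arrays there are.

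By the scanner program's own test, 52.4% to 59.6% of an array's probes were well above background. Of 7 ES cell markers, 6 were well above background in ES and in the 4- and 10-factor clones, 2 in each 3-factor clone, 2 in the unselected MEF, 1 in the immortalised MEF line, and 0 in MEF and the NIH3T3 HRasV12 cells. Tdgf1, another marker of the list, was not well above background on any array. The 2 in the unselected MEF were Pou5f1 and Sox2, and whether their probes read retroviral copies was not tested. The 10 fibroblast markers, which feeder cells share, were all well above background in ES, with a mean log2 level of 0.01 against 4.45 in MEF. The clones were near ES, with 9 of 10 in the 4-factor clone (-0.63) and all 10 in the others. Their means were 0.35 (10 factors), 0.02 and -0.5 (3-factor clones 1 and 2). The part of feeder or fibroblast cells in the results below was not tested. The ES, MEF, 4-factor and 10-factor arrays shared scan 1 and both 3-factor clones scan 2. The immortalised line and the NIH3T3 HRasV12 cells formed scan 3, and the unselected MEF scan 4.

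The 5 genes have different jobs. Fbxo15 encodes an F-box protein, a type of protein that picks substrates for SCF ubiquitin ligases, and mouse ES cells are known to live without it. Dppa3 (also Stella or PGC7) encodes a protein of oocytes, early embryos and germ cells that protects maternal DNA methylation in the zygote and binds Uhrf1, while Dppa4 encodes a chromatin protein with a SAP domain that works together with Dppa2. Tcl1 encodes a small protein that binds the kinase AKT and raises its activity. Alpl encodes tissue-nonspecific alkaline phosphatase, the enzyme behind the staining used to recognise ES and iPS colonies, which is also made by bone-forming cells and by primordial germ cells.

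All 5 genes were well above background in ES, and the iPS clones shared them unevenly. In such bulk RNA, fewer cells with a gene on and less RNA of it per cell cannot be told apart. Fbxo15 and Alpl were well above background in all 4 clones, Dppa3 in those made with 10 and 4 factors, Dppa4 in the one with 10 factors and Tcl1 in all but 3-factor clone 1. Over all probes, 12005 were well above background in ES, and 10200 of them in all 4 clones. Levels below are log2 of the processed signal over the array's 75th percentile, with a floor at -4.78. Values at the floor have no order, and a probe not well above background on an array has only a bound there.

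Fbxo15, the selection gene, gave a processed signal of 469 ± 50.3 in ES, where the error is the scanner program's own for that spot. The 4-factor clone gave 158 ± 21, the 10-factor clone 182 ± 22.9, 3-factor clone 1 765 ± 78.5 and 3-factor clone 2 493 ± 51.3. In MEF, the unselected MEF, the immortalised line and the NIH3T3 HRasV12 cells the signal was between -1.35 and 1.22, and the probe was not well above background. The clones and the fibroblast-derived samples therefore did not overlap. After scaling, the clones were at 28.8% (4 factors), 30.7% (10 factors), 108% and 87.8% (3-factor clones 1 and 2) of ES. In order of level, 3-factor clone 1, ES and 3-factor clone 2 differed from their neighbours by less than 2 combined signal errors (0.11 and 0.19 on the log2 scale). The step down to the 10-factor clone was 1.51 with a combined error of 0.24, and the 10- and 4-factor clones were 0.09 apart. The ES line is labelled as null for this gene, and the sources used here do not say whether the probe lies in the replaced part of it, so the probe checks no label. G418 selection of the clones acted through this locus.

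**Figure D1:**
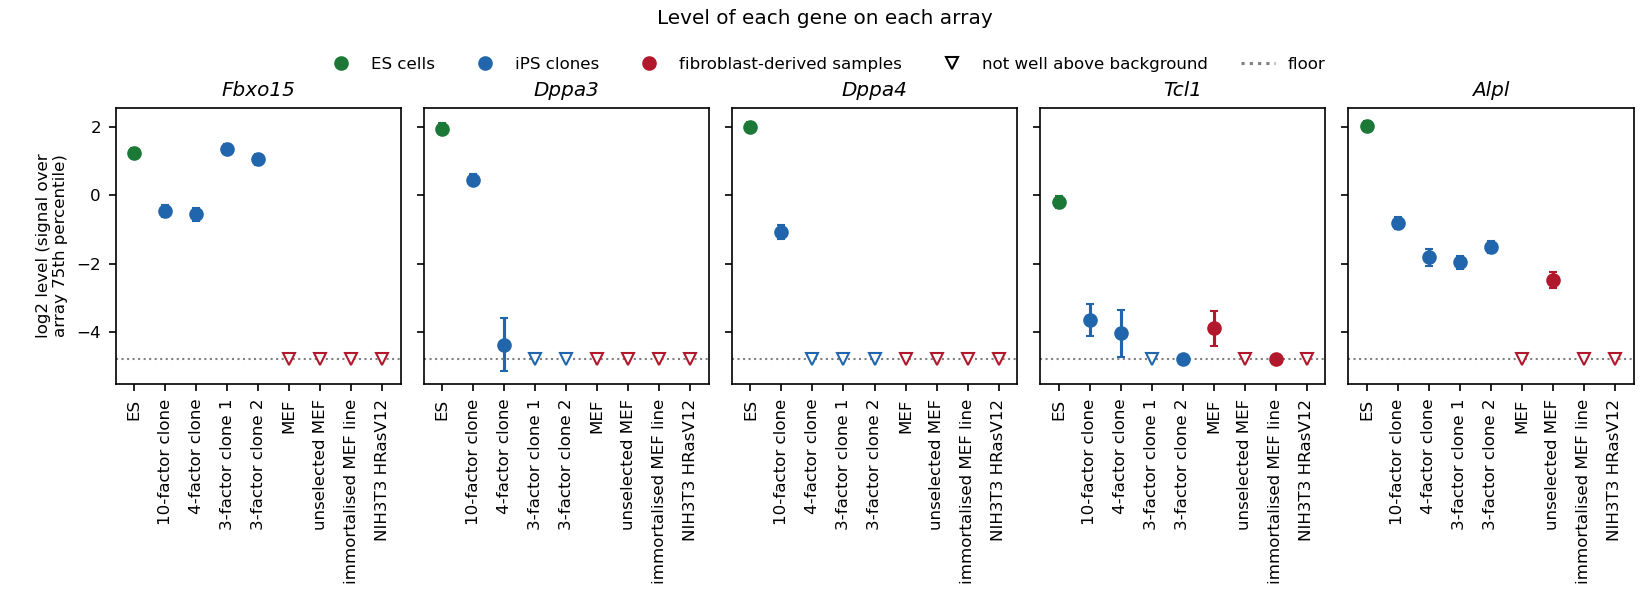
Log2 level of each gene (vertical axis, processed signal over the array's 75th percentile) on each of the 9 arrays. Filled circles are arrays where the probe was well above background, with the scanner program's signal error as bars, and open triangles are arrays where it was not. Fbxo15 and Alpl stand above the floor in all 4 clones, Dppa4 in ES and the 10-factor clone alone.

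Alpl was the other gene that all clones shared with ES. Its signal was 815 ± 84.7 in ES. The 10-factor clone gave 143 ± 17.7, the 4-factor clone 66.5 ± 11.4, and 3-factor clones 1 and 2 gave 77.2 ± 9.56 and 83 ± 10.1. It was 30.1 ± 4.87 in the unselected MEF and not well above background in MEF, the immortalised line and the NIH3T3 HRasV12 cells (-6.28 to 0.58). Every clone was above every fibroblast-derived sample and far below ES, at 13.9% (10 factors), 6.94% (4 factors), 6.26% and 8.5% (3-factor clones 1 and 2) of ES, while the unselected MEF was at 4.39%. The 10-factor clone stood 0.71 above 3-factor clone 2 on the log2 scale, more than 2 combined errors of 0.25. The other 3 clones and the unselected MEF each differed from their neighbour in the order by less than 2 combined errors. Macrophage markers differed in the unselected MEF, where 4 of 5 were well above background with a mean log2 level of -1.31, against 2 to 3 of 5 and means of -4.02 to -3.34 on the other 8 arrays. Ptprc, the general leukocyte marker, was not well above background on any array. Epithelial markers differed too, with 5 of 5 well above background in the unselected MEF (mean 0.95), as in ES and every clone. MEF had 3 of 5 (-1.51), the immortalised line 2 (-3.51) and the NIH3T3 HRasV12 cells 1 (-4.42). The part of macrophage-like or epithelial-like cells in the Alpl signal was not tested.

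Alpl is known to start from alternative first exons, and RefSeq (GRCm38.p6) lists 2 starts. The 250 bases before each are shown with motifs in capitals, because the signal does not tell which start was used.

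Alpl upstream start (chr4:137796385-137796634, minus strand): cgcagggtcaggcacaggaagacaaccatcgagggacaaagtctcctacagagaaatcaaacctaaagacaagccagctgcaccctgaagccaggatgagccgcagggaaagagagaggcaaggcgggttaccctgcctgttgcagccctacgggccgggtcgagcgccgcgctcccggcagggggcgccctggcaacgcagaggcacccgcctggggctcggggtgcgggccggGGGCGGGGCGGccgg

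Alpl downstream start (chr4:137766476-137766725, minus strand): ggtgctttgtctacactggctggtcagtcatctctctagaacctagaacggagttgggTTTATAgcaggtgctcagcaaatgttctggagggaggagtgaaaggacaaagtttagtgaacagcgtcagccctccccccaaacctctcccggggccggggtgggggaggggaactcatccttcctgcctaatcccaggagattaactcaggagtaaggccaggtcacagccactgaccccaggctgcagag

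The following 5 short motifs were searched on both strands: the octamer ATGCAAAT, the Sox core ACAATG, the nuclear receptor site AAGGTCA, the TATA motif TATAAA and the GC box GGGCGG. The upstream window has a GC content of 68.4% with 20 CpG and holds the GC box at 15 and 10 bases before the start, the copies overlapping. The downstream window has a GC content of 56% with 4 CpG and holds the TATA motif on the opposite strand, 192 bases before the start. Over 32851 windows of the same length the median GC content was 52.4% with 6 CpG, 32.7% held the GC box and 12.4% the TATA motif. The octamer, the Sox core and the nuclear receptor site, held by 1.6%, 10.7% and 4.08% of windows, were not found in either window.

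For Dppa3 the signal was 769 ± 80.2 in ES, and the 10-factor clone gave 345 ± 38.7. The 4-factor clone gave 11.3 ± 6.18, well above background by the program's test but small against its own error. The 2 clones with 3 factors gave 0.328 ± 1.98 and 1.6 ± 2.09, and the 4 fibroblast-derived samples between -0.756 and 5.79, none well above background. The 10-factor clone therefore stood alone among the clones, at 35.6% of ES against 1.26% in the 4-factor clone and upper bounds of 0.544% and 0.692% in the 3-factor clones. Each step, from ES to the 10-factor clone (1.49, combined error 0.22) and from there to the 4-factor clone (4.82, combined error 0.8), was larger than 2 combined errors.

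Dppa4 followed the same outline with a larger gap to ES. ES gave 797 ± 83.5 and the 10-factor clone 119 ± 16.7, which is 11.8% of ES. With 4 factors it was 6.08 ± 5.85, and in the 3-factor clones and the fibroblast-derived samples it was between -7.67 and 0.643, not well above background. The upper bounds in the 3 other clones were between 0.524% and 0.674% of ES.

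Tcl1 was the dimmest probe in ES, at 173 ± 21.6. With 10 factors it was 20.1 ± 6.44, with 4 factors 14.2 ± 6.79 and in MEF 14.6 ± 5.18. The values of 3-factor clone 2 (7.85 ± 2.94) and the immortalised line (7.3 ± 2.31) were well above background but under the floor, and 3-factor clone 1, the unselected MEF and the NIH3T3 HRasV12 cells were not well above background. ES was alone at the top, 3.44 above the 10-factor clone on the log2 scale with a combined error of 0.5. The 10-factor clone, MEF and the 4-factor clone followed each other within 1 combined error, so the Tcl1 order below ES is not resolved here. As shares of ES the 10- and 4-factor clones were at 9.2% and 6.99% and MEF at 7.79%.

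The window before the Tcl1 start is shown as for Alpl. Dppa3 and Dppa4 had no window in the set used, and Fbxo15 was not searched.

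Tcl1 (chr12:105222738-105222987, minus strand, GRCm38.p6): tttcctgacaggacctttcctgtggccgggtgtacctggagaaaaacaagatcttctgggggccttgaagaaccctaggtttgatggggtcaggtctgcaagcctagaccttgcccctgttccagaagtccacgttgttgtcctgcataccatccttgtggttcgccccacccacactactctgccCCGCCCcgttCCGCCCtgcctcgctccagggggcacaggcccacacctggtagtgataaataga

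Its GC content is 57.6% with 7 CpG, and the capitals mark the GC box on the opposite strand at 64 and 54 bases before the start. The other 4 motifs were not found in it.

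**Figure D2:**
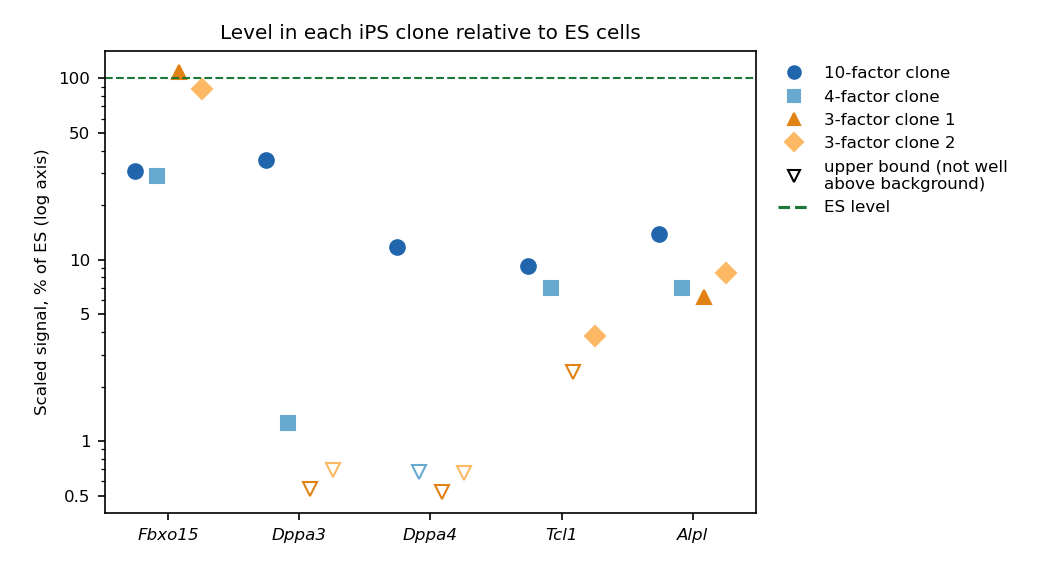
Scaled signal of each gene in each iPS clone as a percentage of its signal in ES (vertical log axis). Open triangles are upper bounds for clones where the probe was not well above background. The 3-factor clones sit near 100% for Fbxo15 alone, and the 10-factor clone is the highest clone for Dppa3, Dppa4 and Alpl; the Tcl1 order is not resolved.

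Setting the 4 iPS clones against all 4 fibroblast-derived samples asks whether the genes were turned up in the clones. Fbxo15 and Alpl rose, and Dppa3, Dppa4 and Tcl1 did not pass. Fbxo15 and Alpl both entered this test, and the one against MEF, only through the clones, where they were high. They could thus hardly be called lower, and the Alpl p-values are weak support. With no filter on dim probes Alpl was not called (2.68, limma adjusted p = 0.0815). The clones were kept by G418 selection through the Fbxo15 locus, and no fibroblast-derived sample was. A rise of Fbxo15 was thus favoured by the design, and its p-values here and against MEF are no independent support. Fbxo15 had a mean log2 level of 0.35 ± 1 (SD, n = 4) in the clones, and its level was at least 44.5-fold higher in them (difference at the floor 5.13 ± 0.46 SE, limma adjusted p = 0.00156). With normexp background the difference was 2.19 (limma adjusted p = 0.0255). Alpl had a mean of -1.52 ± 0.51 (SD, n = 4) in the clones against -4.2 ± 1.16 (SD, n = 4), with 1 of the 4 fibroblast-derived samples above background, and differed by 2.68 ± 0.57 (SE, limma adjusted p = 0.0271). Over all 12939 probes tested, 8.92% were called (4.19% higher and 4.73% lower), and 2 of the 4 tested members were called, both higher. An exact permutation test over the 8 samples gave p = 0.0286 for each of Fbxo15 and Alpl, two-sided, the smallest it can give. The Alpl call was lost in 10 of 22 alternatives, with adjusted p up to 0.221, among them every fit that left out 1 clone, MEF or the NIH3T3 HRasV12 cells (2.44 to 2.83). Without the unselected MEF the Alpl difference was 3.26 (limma adjusted p = 0.00216). Fbxo15 lost its call in 1 of 22, within scan 1 (4.28, limma adjusted p = 0.203), where 2 clones and 1 MEF array remain and no probe was called.

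For Dppa3 the difference between clones and fibroblast-derived samples at the floor was 1.42 ± 1.12 (SE, limma adjusted p = 0.445), with 2 of 4 clones above background, and no bound on the fold is given. Dppa4, above background in 1 of 4 clones, fell short of the filter for testing. Tcl1 differed by 0.25 ± 0.35 (SE, limma adjusted p = 0.677), with an interval of -0.56 to 1.05. Scaling to the median took the median difference of all probes from 0.02 to -0.27 and the calls from 542 higher and 612 lower to 284 and 694. Under it and the other scalings the signs of Fbxo15 and Alpl did not change.

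Against MEF alone, where 1 array is assumed to vary like the clones, Alpl rose, at least 11-fold higher (difference at the floor 3.26 ± 0.51 SE, limma adjusted p = 0.0355). Fbxo15 was at least 40.2-fold higher and missed the threshold (limma adjusted p = 0.052). Of 13042 probes tested 14% were called, 4.71% higher and 9.32% lower, and scaling to the median took the calls from 614 higher and 1216 lower to 271 and 978. The Alpl call was lost in 10 of 17 alternatives, including without the 4-factor clone (3.36) or either 3-factor clone (3.41 without clone 1, 3.26 without clone 2), and Fbxo15 passed in 5 of 17, among them scan as a block (4.28, limma adjusted p = 0.0133). Dppa3 (1.42 ± 2.54 SE) and Tcl1 (-0.43 ± 0.57 SE) did not pass, with limma adjusted p = 0.731 and 0.641.

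Against ES, which asks how near the clones came, Alpl and Tcl1 were called lower. Alpl differed by -3.56 ± 0.51 (SE, limma adjusted p = 0.0301) and Tcl1 by -4.11 ± 0.57 (SE, limma adjusted p = 0.028), lower in 4 of 4 clones in each case. Of 13201 probes 9.42% were called lower and 4.04% higher, and 2 of the 5 members were called, both lower. Dppa4 (-5.87 ± 1.85 SE, limma adjusted p = 0.134) and Dppa3 (-5.32 ± 2.55 SE, limma adjusted p = 0.265) had larger mean differences with a wide spread between clones, and did not pass. Without the 10-factor clone the differences were -6.6 for Dppa3 and -6.79 for Dppa4. The clones left were at the floor for Dppa4 and at or near it for Dppa3, which sets their spread. Both genes entered that fit only through the ES array, so passing it is no support. With normexp background Dppa4 passed (-3.17, limma adjusted p = 0.0407). In the fit of all 4 clones, too, Dppa4 entered only through the ES array, where it was high. Fbxo15 differed by -0.89 ± 0.99 (SE, limma adjusted p = 0.62), and its 95% interval of -3.72 to 1.93 leaves room for a sizeable difference in either direction. With scan as a block the Fbxo15 difference was -1.75 and passed (limma adjusted p = 0.036); that fit rests on the 4- and 10-factor clones, the only ones in the scan of ES. The Alpl call was lost in 8 and the Tcl1 call in 7 of 17 alternatives. Both 3-factor clones were at the floor for Tcl1, and with the floor halved its difference was -4.4 and not called (limma adjusted p = 0.068). These comparisons share their 4 clone arrays.

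**Figure D3:**
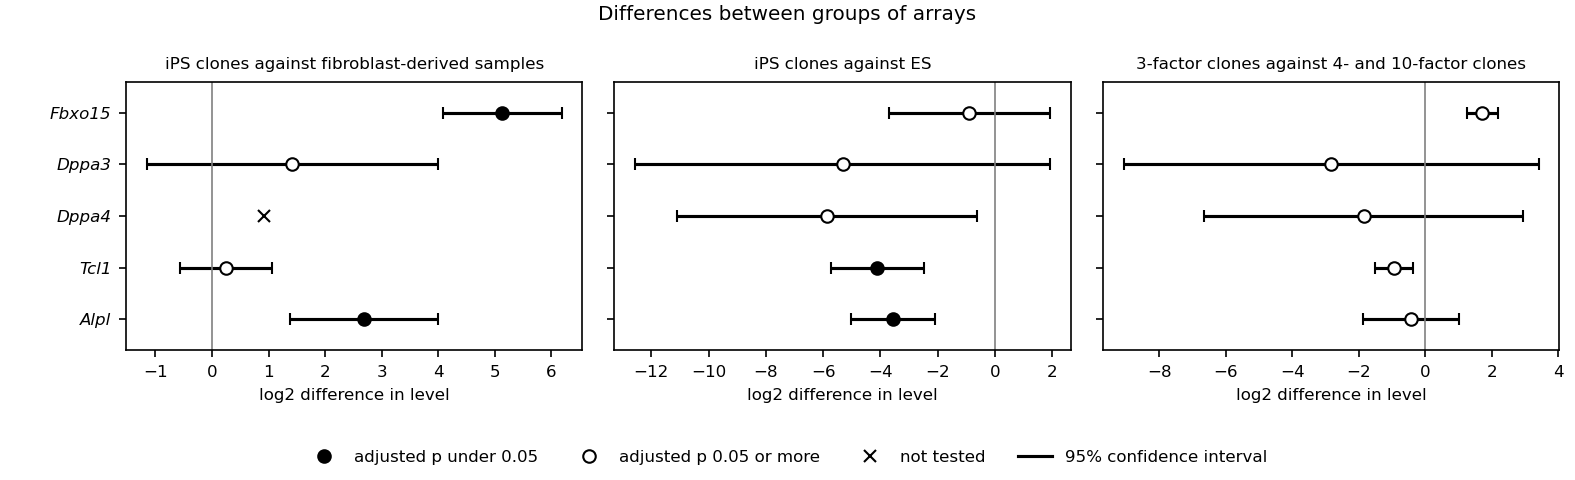
Difference in log2 level (horizontal axis) for each gene in 3 comparisons, with 95% confidence intervals from the limma fits; filled circles have an adjusted p under 0.05 and the cross marks a gene that was not tested. Fbxo15 and Alpl are filled in the left panel and Tcl1 and Alpl in the middle one.

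Clones made with 3 factors were set against those with 4 and 10 factors. Fbxo15 and Dppa3 pointed in opposite directions and neither passed in the fit of these 4 arrays. Fbxo15 was at 1.35 and 1.05 in the 3-factor clones and at -0.55 and -0.46 in the 4- and 10-factor clones (difference 1.71 ± 0.15 SE, limma adjusted p = 0.101). With all 9 arrays sharing the estimate of spread it passed (limma adjusted p = 0.00763). Dppa3 was at least 10.9-fold lower in the 3-factor clones (limma adjusted p = 0.486), a bound carried by the 10-factor clone. The Dppa3 difference at the floor was -2.84, and -0.43 without that clone. Dppa4, above background in the 10-factor clone alone, differed by -1.85 at the floor (limma adjusted p = 0.541). Tcl1 differed by -0.95 ± 0.18 (SE, limma adjusted p = 0.144) and Alpl by -0.43 ± 0.45 (SE, limma adjusted p = 0.604). Only 2 of 13544 probes were called, 0.0148%, against 3072 (22.7%) at an unadjusted p under 0.05, and none of the members was among the called. Both 3-factor clones were in scan 2 and the others in scan 1, so factor set and scan cannot be told apart.

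Pairs of single arrays have no replicate check and no test. ES against MEF differed at least 5-fold on 12% of 13086 probes, 6.38% being higher in ES. All 5 genes were among these, by at least 74.8-fold for Fbxo15, 123-fold for Dppa3, 127-fold for Dppa4 and 130-fold for Alpl, and by 12.8-fold for Tcl1. The 10-factor against the 4-factor clone differed at least 5-fold on 3.14% of 12962 probes, with 1.84% higher in the 10-factor clone. Dppa3 and Dppa4 were among these. Dppa3 was 28.3-fold higher, a fold exceeded by 18 probes, and Dppa4 at least 17.5-fold. Alpl was 2-fold, Tcl1 1.32-fold and Fbxo15 1.07-fold higher there. Both arrays belong to scan 1.

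The 10-factor clone, the nearest clone to ES for Dppa3, Dppa4 and Alpl, still differed from ES at least 5-fold on 5.57% of 13244 probes, 2.98% being lower. Tcl1 (10.9-fold lower), Dppa4 (8.48-fold lower) and Alpl (7.2-fold lower) were among them, while Fbxo15 (3.25-fold lower) and Dppa3 (2.81-fold lower) were not. In the other clones Dppa3, Dppa4, Tcl1 and Alpl were all at least 5-fold below ES, and Fbxo15 was not. The share of probes that far below ES was 5.02% with 4 factors, 5.39% in 3-factor clone 1 and 5.05% in 3-factor clone 2. The smallest of these differences was 11.8-fold, for Alpl in 3-factor clone 2. The 4-factor clone against the unselected MEF, which received the same number of factors, differed at least 5-fold on 11.9% of 12736 probes, 4.83% being higher. Fbxo15 was at least 19.3-fold higher in the selected clone and Alpl 1.58-fold higher, the other 3 genes being low in both. These arrays come from different scans and differ in selection too. The unselected MEF against MEF differed at least 5-fold on 4.88% of 12389 probes, 3.47% being higher, and Alpl was the member among them, at least 5.71-fold higher. Between the 2 clones with 3 factors, 0.132% of 12160 probes differed at least 5-fold, and none of the 5 genes did (1.23-fold for Fbxo15, higher in clone 1, and 1.36-fold for Alpl, higher in clone 2).

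Whether a retroviral copy of any member was delivered, and whether its probe would read one, was not tested, since the labels do not name the factors.

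Other ES markers were described in the comparison with the fibroblast-derived samples. Of 22 on the array 18 were tested, 6 rose, 1 fell and 11 did not pass, with a median difference of 1.54 against 0.02 over all probes tested. Tdh, a threonine dehydrogenase that feeds ES cell metabolism, was higher in the clones by a factor of at least 1016. Nr0b1, a nuclear receptor protein of ES cells, was at least 59.6-fold higher. Neither was well above background in a fibroblast-derived sample, so both entered the test only through the clones. Spp1, which encodes osteopontin, fell by 1.86. Of 16 candidate factors, genes of the kind screened for reprogramming, 15 were tested. Pou5f1 rose, Myc fell (-3.01 ± 0.52 SE, limma adjusted p = 0.014) and 13 did not pass, with a median difference of 0.71. Not all are particular to ES cells: Myc was at -0.34 in ES and 2.04 in MEF. Pou5f1 and Sox2 were also well above background in the unselected MEF (-3.06 and -1.86), and Sox2 in the immortalised line (-0.99). Whether retroviral copies of candidate factors were delivered or read was not tested. Dppa5a, encoding an RNA-binding protein of ES cells, had a level of 8.25 in ES; the 10-factor clone was at 5.6, the 4-factor clone at 2.84 and the 3-factor clones at -3.55 and -3.01.

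Germ cell genes, a setting in which Dppa3 and Alpl are known, showed the 10-factor clone near ES in number. Of 12 on the array, ES had 12 well above background, the 10-factor clone 11, the 4-factor clone 6, the 3-factor clones 5 and 6, and the fibroblast-derived samples 2 to 3. Ddx4, Dnd1, Mael, Stk31 and Sycp3 were well above background in ES and the 10-factor clone and in no other clone, 5 of the 12 (41.7%), a share that was 2.44% over the 12005 probes well above background in ES. Dppa4 has that pattern too. Ddx4, an RNA helicase of the germ line, had a level of -0.06 in ES and -2.46 with 10 factors, and Mael, a piRNA pathway gene, was at -0.47 and -3.53. With 10 factors Stk31 (-4.6) and Sycp3 (-4.32) lay near the floor. Ddx4 was also well above background in the unselected MEF, and Dnd1 in the immortalised line and the NIH3T3 HRasV12 cells. Against the fibroblast-derived samples 7 germ cell genes were tested, 2 rose (Kit, at least 11.5-fold higher, limma adjusted p = 0.00811, and Tfap2c) and 5 did not pass. Kit and Tfap2c were well above background in no fibroblast-derived sample, so they entered that test only through the clones. Against ES 4 were called lower (Piwil2, Mael, Sycp3 and Stk31). These were well above background in ES and in at most 1 clone, so they entered the test only through the ES array and could only be lower.

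**Figure D4:**
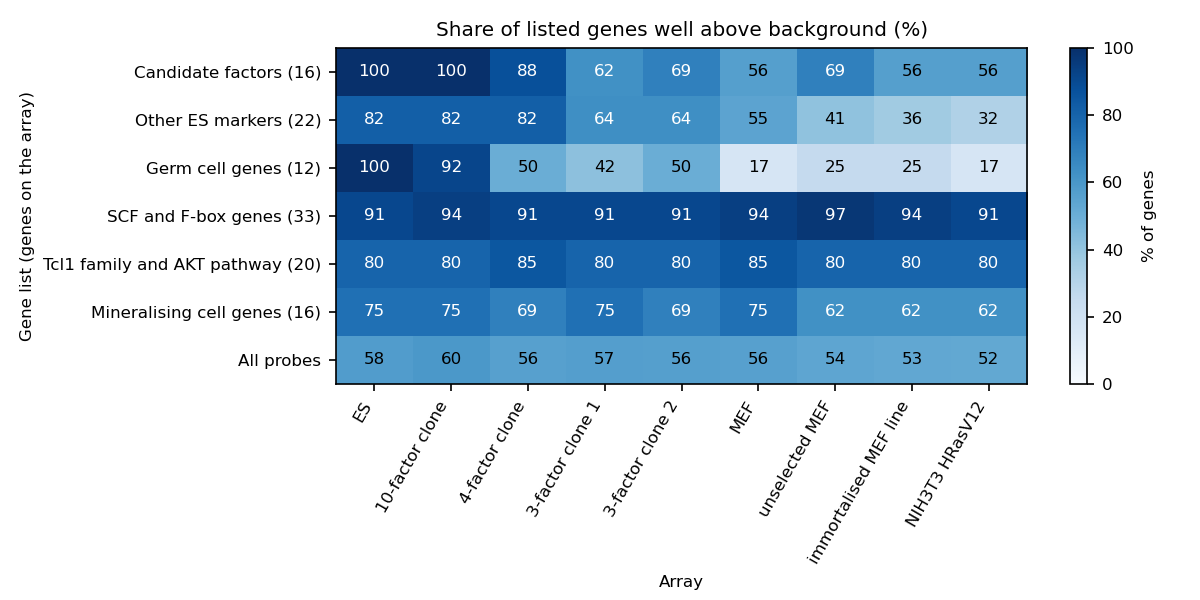
Percentage of the genes of each list (rows, with the number on the array) that were well above background on each array (columns), with all probes in the last row. Germ cell genes go from 100% in ES and 92% in the 10-factor clone to between 42% and 50% in the other clones.

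Gene groups around each member were described in the same comparison. Among the subunits of SCF ubiquitin ligases and other F-box genes, the family of Fbxo15, 31 of 33 were tested against the fibroblast-derived samples. Fbxw7, which targets cyclin E and Myc for degradation, rose (1.38 ± 0.19 SE, limma adjusted p = 0.00653), Fbxo4 fell (-1.49 ± 0.33 SE, limma adjusted p = 0.0306) and 29 did not pass, with a median difference of 0.12. Over all probes 4.19% were called higher and 4.73% lower, and 2 calls among 31 genes do not set the list apart from that background. In the Tcl1 family and AKT pathway 16 of 20 were tested, none rose and 2 fell, the kinase Akt1 (-1.19 ± 0.23 SE, limma adjusted p = 0.0208) and the PI3-kinase subunit Pik3r2 (-1.46 ± 0.31 SE, limma adjusted p = 0.0271), with a median of -0.35, beside the 4.73% called lower over all probes. Of the relatives of Tcl1, Tcl1b2 was well above background in MEF alone, while Tcl1b3 was so on all 9 arrays, at low levels between -4.31 and -3.07.

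In the DNA methylation group around Dppa3, 7 were tested, Tet1, a methylcytosine dioxygenase, rose by 1.58, and 6 did not pass. Uhrf1, the partner of Dppa3, differed by 1.18 ± 0.77 (SE, limma adjusted p = 0.357). Dnmt3l, a cofactor of de novo methylation, had a level of 2.21 in ES, against 0.64 with 10 factors and -3.09 with 4 factors, and was at the floor in both 3-factor clones. Of the genes that neighbour Dppa3 and Nanog on chromosome 6, 7 were tested and Phc1, a Polycomb gene, rose (2.86 ± 0.58 SE, limma adjusted p = 0.023). Among the neighbours that did not pass, the growth factor gene Gdf3 was at 0.71 in ES, 0.16 and -0.41 in the 4- and 10-factor clones, and -4.04 and -2.34 in the 3-factor clones. Of 3 two-cell-like genes 2 were tested and neither passed. None of the 9 arrays had the other alkaline phosphatase genes Alpi and Akp3 well above background, and Alppl2 was so only in ES, at -3.79. In the mineralising cell group, the other known setting of Alpl, 12 of 16 were tested, none rose and 3 fell, namely Sparc (-2.98 ± 0.7 SE, limma adjusted p = 0.0376), Enpp1 (-2.71 ± 0.67 SE, limma adjusted p = 0.0442) and Spp1, with a median of -1.28.

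The genes with the most similar pattern to each member over the 9 arrays were taken by Pearson's r among 3473 candidates. For Fbxo15 these were Nr0b1 (r = 0.998), Tert, the catalytic subunit of telomerase (0.99), Glt1d1 (0.989), Map4k1 (0.987) and Tnni3 (0.985). Nr0b1 had a level of 1.73 in ES, -0.04 and -0.01 in the 4- and 10-factor clones, 1.42 and 1.71 in the 3-factor clones and at the floor in the 4 fibroblast-derived samples. Like Fbxo15 it was higher in both 3-factor clones than in the 4- and 10-factor clones. Much of each r comes from the 4 fibroblast-derived arrays at the floor.

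**Figure D5:**
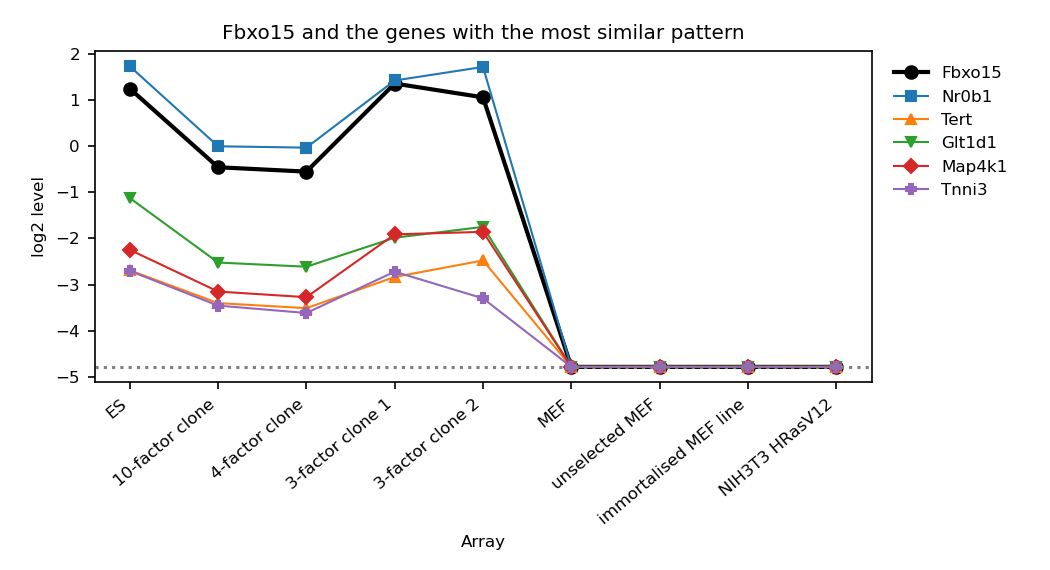
Log2 level (vertical axis) of Fbxo15 and of the 5 genes with the highest Pearson's r with it, on each of the 9 arrays; the lines only join the points of a gene, and the dotted line is the floor. The genes are lower in the 4- and 10-factor clones than in ES and are at the floor in the 4 fibroblast-derived samples.

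For Dppa3 the nearest were Sec14l4, Pifo, Mei1, Tmem54 and Tcstv3, each with r = 0.999, and for Dppa4 Etv2 (0.9998), Rbmxl2 (0.9996), Hand1 (0.999), Diras1 (0.999) and Nodal (0.999). These genes stand on ES and the 10-factor clone, with nearly all other arrays at the floor, so r is set by 2 points. For Tcl1 they were Aard (0.991), Nts (0.986), Fam221a (0.985), Zap70 (0.981) and Gfra3 (0.979). For Alpl they were Mtmr7 (0.989), Misp3 (0.971), Arhgap4 (0.97), Txlnb (0.947) and Pld6 (0.945). Between the members themselves r was highest for Dppa3 and Dppa4 (0.982) and lowest for Fbxo15 and Tcl1 (0.408), over the same 9 arrays with many values at the floor.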

How the data were processed

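RNA of 9 samples was measured on 9 single-colour arrays of 20868 gene probes. Per the file headers, the deposited intensity values were made with Agilent Feature Extraction 8.5.1.1, which subtracted the background; a spot is well above background at 2.6 times its background error, per the file headers. The build of the probe positions: not given in the sources used here. The series value table, an intensity deposited by the authors, matched the processed signal within 1% and served as an alternative. Repeated spots were averaged and outlier spots left out; the deposited signal was divided by the array's 75th percentile, floored at 3.63% of it, and turned into log2. Between 39.8% and 49.3% of probes were at the floor. The median SD of log2 signal over repeated spots was 0.1 to 0.17 per array.

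Bounds ("at least") set the brighter mean against the lowest well-above signal, or the probe's own where higher, per array of the dimmer side. Testing required a probe to be well above background on 50% or more of a group's arrays. The tests were two-sided (lmFit, then eBayes, of limma 3.58.1 under R 4.3.3), adjusted by Benjamini-Hochberg over all probes, with a threshold of 0.05; the code was tested on simulated data. Named genes are the 5 members, the 5 genes of highest r with each, and up to 4 per gene list by largest called change or by role. The members and lists were chosen with earlier results of these data known. RefSeq accessions, descriptions and clone names gave 16372 named probes; upstream sequences are RefSeq's (GRCm38.p6), and Dppa3, Dppa4 and Fbxo15 are named only. Scaling, background correction, floor, filter, samples in the fit, scan and left-out arrays were varied.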

Additional observations from a re-analysis of the deposited data

Results flagged for a closer look

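In each class of 4 samples, 1 array can stand apart from the 3 others by a gap that takes up nearly the whole range of the class. There were 4 such cases over the 5 genes. The rule marks about 1 in 20 groups by chance where values vary freely, a rate that does not hold for values at a floor. Among the iPS clones, Dppa3 in the 10-factor clone was at 0.47 and Dppa4 in the same clone at -1.07 on the log2 scale. Among the fibroblast-derived samples, Tcl1 in MEF was at -3.88 and Alpl in the unselected MEF at -2.47. The other samples of the class were at the floor, except the 4-factor clone for Dppa3 (-4.36), so that in 3 of the 4 cases the gap takes up the whole range by construction, and classes wholly at the floor could show none. The cause was not tested.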

How the results depend on the processing

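No member difference changed sign while called. Over the alternatives for the 5 genes, 285 differences kept their side of the threshold, 36 lost their call and 11 gained one; of the named list genes 268 kept their side and 110 lost their call. For the clones against the fibroblast-derived samples (1154 called), the count was 641 with no filter on dim probes, 739 with scan as a block, 0 within scan 1, 440 with the 3-factor pair averaged, and 412 to 1587 leaving out an array. Alpl lost its call with normexp background (0.72), no filter (2.68), within scan 1 (3.48), the 3-factor pair averaged (2.75), and leaving out any array but the unselected MEF or the immortalised line (2.44 to 3.26 over all arrays left out); Fbxo15 lost it within scan 1 (4.28). Against MEF (1830 called) the count was 198 with all 9 arrays in the fit, 0 within scan 1, 348 with the pair averaged and 318 to 1895 leaving out a clone, lowest without either 3-factor clone (318 and 349). Against ES (1777 called) it was 1012 with median scaling, 1160 with the floor halved, 890 with all 9 arrays, 0 within scan 1, 505 with the pair averaged and 475 to 2082 leaving out a clone, lowest without either 3-factor clone (475 and 479). For 3-factor against 4- and 10-factor clones (2 called) it was 0 with median scaling or normexp, 7 with quantile normalization, 1 with the floor halved and 44 with it doubled, 40 with no filter, 126 with all 9 arrays and 0 leaving out any clone. Averaging the pair, leaving out arrays and staying within a scan leave fewer samples; the cause of the other shifts was not tested. The sets of most similar genes moved in 23 of 35 alternatives.

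No paired analysis was possible because the groups compared share at most 1 replicate number: number 1, with number 2 held by a 3-factor clone alone. Each member has 1 probe, so trying each probe on its own was not run, and scan could not be a block for the 3-factor comparison. Signal over background limits Tcl1 in the clones and Dppa3 in the 4-factor clone, which lie near the floor.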
